A study of Mus musculus with 6 samples.

Results

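The brush border is the carpet of microvilli on the apical face of absorptive epithelia, above all of the intestine and of the kidney proximal tubule. A list of 10 genes for its structure and its surface enzymes was followed in mouse bladder: Vil1 and Myo1a of the microvillus core, the cadherins Cdh17, Cdhr2 and Cdhr5, the peptidases Mep1a, Mep1b and Anpep, and the disaccharidases Sis and Lct. A gene was found by its symbol in the annotation of the array's probe sets, which are groups of short probes read together as 1 signal, and where a gene had several, the one brightest on average over the 6 arrays stood for it. A probe set was named for 9 of the 10 members, out of 18193 genes in all, and Sis was not analysed here. Bladders were taken at embryonic day 18.5 and profiled on 3 arrays of Get1 -/- (null) animals and 3 arrays of Get1 +/- (heterozygous) animals, and the series' design text speaks of 3 mice of each genotype. Get1 is an older name of Grhl3, which encodes a transcription factor of the grainyhead family that acts in surface epithelia. The reference animals thus carry 1 mutant copy, and no wild-type animal was part of the data analysed here. The comparison asks which transcripts differ in the abnormal bladder of null animals.

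Bundles of actin filaments form the core of each microvillus. Villin bundles them, and myosin 1a ties them to the membrane. Cadherins of the protocadherin-like kind link the tips of neighbouring microvilli and are held by a complex of scaffold proteins and a motor. On the outer face, anchored hydrolases cut peptides and disaccharides into pieces that transporters can take up. The urothelium, the lining of the bladder, has no brush border; its surface is covered by plaques of uroplakins.

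The labels were checked on Grhl3, whose signal read 76.6, 21.5 and 119.7 on null arrays 1 to 3, against 143.3, 132.9 and 125.6 on heterozygous arrays 4 to 6. The sources used here do not place its probe set relative to the mutation, so this may check nothing. All 12 urothelial markers of a list for this tissue averaged above the filter for dim genes in both groups. Median signals of the 6 arrays ran from 58.2 to 72.4, the lowest being that of null 1, which is also the 1 array whose title has 1 as its first number. The labels do not say what that number stands for; if it marks a batch, the batch holds null 1 alone and cannot be told apart from that array. Over the 12735 genes tested the median log2 difference, null minus heterozygous, was −0.03.

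Promoter sequences from RefSeq (build GRCm38.p6, 250 bases before to 50 bases after the start site) were used for 8 members, without Cdh17 and Mep1b. They were searched on both strands for letters typical of 4 families of gut transcription factors: for CDX factors the letters TTTATG, for HNF4 the letters CAAAGT, for HNF1 the letters GTTAAT and for GATA factors the letters AGATAA. Those of Vil1 and Myo1a are shown because both genes were called higher in null bladders, and those of Cdhr2 and Lct as examples that hold more than 1 of these motifs, as the windows of Sis and Mep1a also do. Capitals mark every match, on either strand, and the sequences run 5′ to 3′ along the gene.
Vil1 promoter, chr1:74409134-74409433, plus strand: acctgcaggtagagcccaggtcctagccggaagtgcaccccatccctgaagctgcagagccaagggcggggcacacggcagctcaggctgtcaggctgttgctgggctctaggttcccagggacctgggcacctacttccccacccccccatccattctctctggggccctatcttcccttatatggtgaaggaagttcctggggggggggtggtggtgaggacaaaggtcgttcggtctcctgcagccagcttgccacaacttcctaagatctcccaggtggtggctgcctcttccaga
Myo1a promoter, chr10:127705006-127705305, plus strand: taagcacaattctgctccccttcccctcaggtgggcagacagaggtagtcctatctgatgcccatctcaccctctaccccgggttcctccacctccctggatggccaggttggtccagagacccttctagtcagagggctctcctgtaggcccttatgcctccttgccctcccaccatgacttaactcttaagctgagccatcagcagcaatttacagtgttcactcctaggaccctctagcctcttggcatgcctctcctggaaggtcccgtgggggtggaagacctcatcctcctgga
Cdhr2 promoter, chr13:54701213-54701512, plus strand: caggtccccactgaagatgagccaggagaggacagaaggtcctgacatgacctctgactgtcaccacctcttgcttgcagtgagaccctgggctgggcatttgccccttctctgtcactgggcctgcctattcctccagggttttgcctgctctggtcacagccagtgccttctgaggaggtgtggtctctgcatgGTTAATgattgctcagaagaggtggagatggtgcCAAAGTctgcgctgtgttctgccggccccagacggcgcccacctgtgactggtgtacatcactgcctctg
Lct promoter, chr1:128328269-128328568, minus strand: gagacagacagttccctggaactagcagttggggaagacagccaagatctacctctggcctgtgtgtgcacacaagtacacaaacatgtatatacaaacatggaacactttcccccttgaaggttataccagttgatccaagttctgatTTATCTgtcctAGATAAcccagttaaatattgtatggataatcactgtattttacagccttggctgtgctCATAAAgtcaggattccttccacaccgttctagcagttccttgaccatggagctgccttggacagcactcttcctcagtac
The windows of Vil1 and Myo1a held none of the 4 motifs, and that of Anpep held none either. In Cdhr2 the HNF1 letters began 54 bases and the HNF4 letters began 20 bases before the start. In Lct the CDX letters began 31 bases before the start, on the opposite strand, with GATA letters at 90 bases on the strand of the gene and at 101 bases on the opposite strand, which do not overlap. The CDX letters stood in 4 of the 8 windows (Lct, Sis, Cdhr5 and Mep1a), against 11.9% of all 32851 promoter windows of this length. The HNF4 letters stood in 2 of 8 (Cdhr2 and Mep1a) against 14.4% of all windows, the HNF1 letters in 2 of 8 (Cdhr2 and Sis) against 7.1%, and the GATA letters in 1 of 8 (Lct) against 11.2%. These matches are descriptions of letters and not of bound sites.

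Of the 9 members measured, 3 rose in null bladders, Vil1, Cdh17 and Myo1a, and 0 fell (adjusted p under 0.05, limma's test over 12735 genes). Of all genes tested 0.448% were called higher and 0.0628% lower. Before any test, values were taken as log2(signal + 16), a scale whose lowest level is 4, and the 30% of genes with the lowest mean (under 5.80) were left out. This filter kept 5 members, Vil1, Myo1a, Cdh17, Anpep and Lct. The 4 below it, Cdhr2, Cdhr5, Mep1a and Mep1b, are given by their values, with a fit that left no gene out. Of the 5 kept, Myo1a and Cdh17 averaged below the cut in heterozygous bladders (4.70 and 5.26). They passed the filter only through their null arrays. In the fit that left no gene out the adjusted p was 0.0799 for Myo1a, which was not called there, and 0.00522 for Cdh17 (limma). All 9 members had a higher mean in null bladders, as did 45.1% of all genes, though for Mep1a the difference was 0.01. The median difference of the 9 members was 1.70, against −0.04 over all 18193 genes. For 5 members every null array lay above every heterozygous array (Vil1, Myo1a, Cdh17, Mep1b and Lct), and for 0 members every null array lay below; of all genes 5.71% were separated with null above and 6.92% with null below. In bulk tissue, more cells that make these transcripts and more transcript per cell cannot be told apart.

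**Figure D1:**
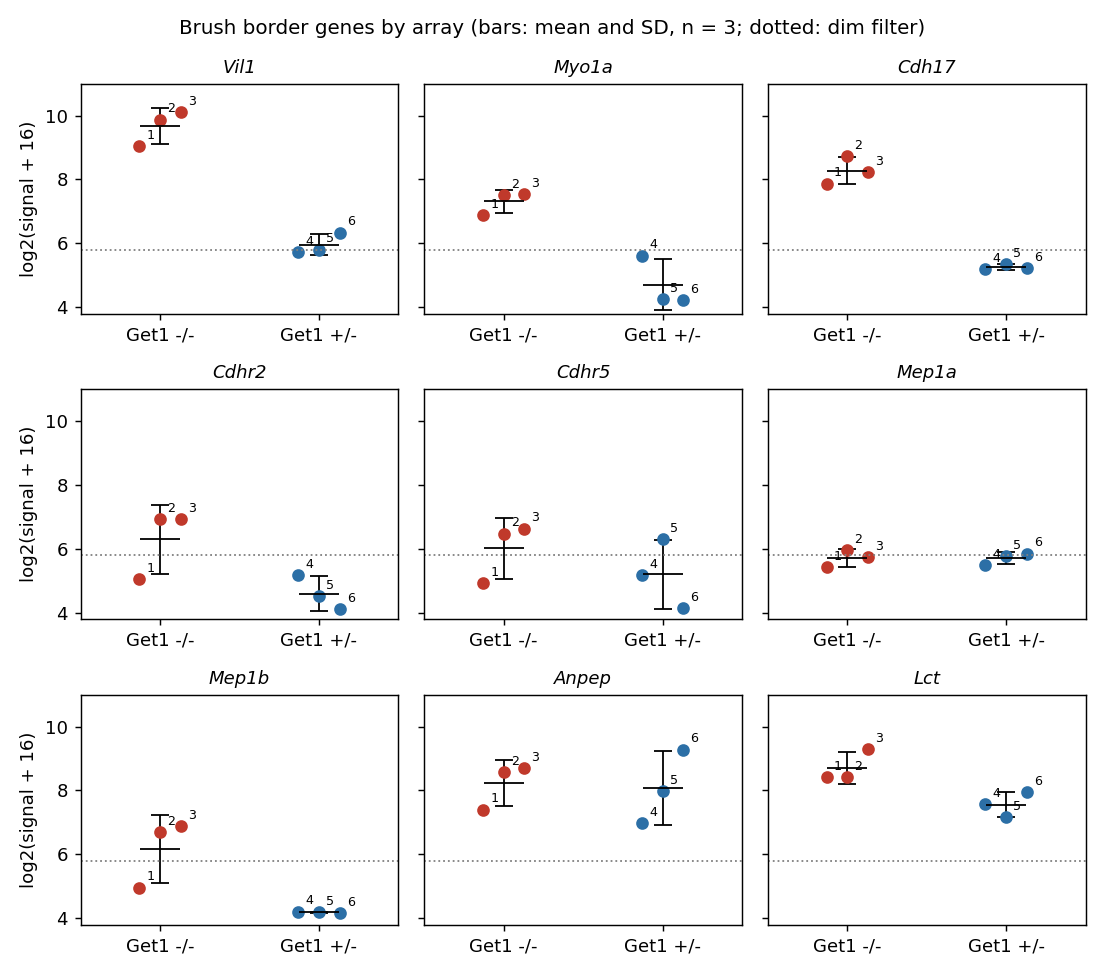
Log2(signal + 16) of the 9 brush border genes with a probe set, on the 3 Get1 -/- arrays (red, left) and the 3 Get1 +/- arrays (blue, right). Points are arrays labelled with their replicate number, bars show mean and SD (n = 3 each), and the dotted line is the filter for dim genes at 5.80. In the panels of Vil1, Myo1a, Cdh17, Mep1b and Lct all red points lie above all blue ones; the other 4 genes overlap.

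Vil1 encodes villin, which bundles, caps and severs the actin filaments of microvilli. Its signal read 509.8, 923.9 and 1081 on null arrays 1 to 3, against 36.7, 39.9 and 64.7 on heterozygous arrays 4 to 6. Every null array stood far above every heterozygous array, and null 1 was the lowest of its group. Its log2 level was 9.67 ± 0.56 in null bladders, against 5.95 ± 0.33 in heterozygous ones (SD, n = 3 each). Vil1 rose by 3.72 (SE 0.33, 95% interval 2.96 to 4.48), a 13.2-fold difference, with an adjusted p of 0.00203 in limma. The call held in each of the 16 alternative fits, with differences from 2.97 to 4.10.

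Myo1a encodes brush border myosin I, a motor that links the actin core to the side membrane of the microvillus. Its signal read 101.9, 167.3 and 169.4 on the null arrays, against 33.1, 3.21 and 2.64 on the heterozygous arrays. The groups did not overlap, and heterozygous 4 stood above the other two of its group, which lay near the lowest level. Its log2 level was 7.31 ± 0.37 in null bladders, against 4.70 ± 0.80 in heterozygous ones (SD, n = 3 each). The difference was 2.61 (SE 0.41, 95% interval 1.67 to 3.56, adjusted p = 0.0445, limma). This call is the least stable of the 3. It was lost in 5 of the 6 fits that left out 1 array (without null 1, null 2, null 3, heterozygous 5 or heterozygous 6, adjusted p from 0.0717 to 0.198), and without heterozygous 4 the adjusted p was 0.00918. With an offset of 1 the difference was 4.15 and the adjusted p 0.207, with an offset of 64 they were 1.45 and 0.0285, and without the filter the adjusted p was 0.0799.

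Cdh17 encodes an intestinal cadherin of the side membranes, which joins neighbouring epithelial cells and lacks the catenin-binding tail of classical cadherins. Its signal read 218.4, 407.7 and 284.9 on the null arrays, against 20.9, 25.0 and 21.3 on the heterozygous arrays. The heterozygous arrays lay close together, and the null arrays were all above them. Its log2 level was 8.28 ± 0.43 in null bladders, against 5.26 ± 0.08 in heterozygous ones (SD, n = 3 each). Cdh17 rose by 3.02 (SE 0.26, 95% interval 2.41 to 3.62, adjusted p = 0.00193, limma), and the call held in each of the 15 alternative fits that tested the gene. With offsets of 1 and 64 the difference was 3.66 and 2.06.

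Cdhr2 and Cdhr5 encode the protocadherin-like partners whose threads join microvillus tips. The signal of Cdhr2 was 17.0, 105.1 and 106.1 on the null arrays, against 20.4, 6.79 and 1.21 on the heterozygous arrays. Null 2 and null 3 stood above the heterozygous arrays, while null 1 lay within their range. Its log2 difference was 1.70 (exact permutation p = 0.2, where 0.1 is the smallest that 3 against 3 arrays allow, two-sided; 95% interval 0.41 to 2.98 and adjusted p = 0.49 in the limma fit without a filter). With offsets of 1 and 64 it was 3.04 and 0.86.

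The signal of Cdhr5 was 14.5, 73.2 and 83.5 on the null arrays, against 20.5, 62.9 and 1.68 on the heterozygous arrays. Here too null 1 lay among the heterozygous arrays, which were themselves widely spread. The log2 difference was 0.80 (exact permutation p = 0.4, two-sided; 95% interval −0.68 to 2.28 in the limma fit without a filter). Without heterozygous 6, the lowest array, it was 0.27, and without heterozygous 5 or null 1 it was 1.35.

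**Figure D2:**
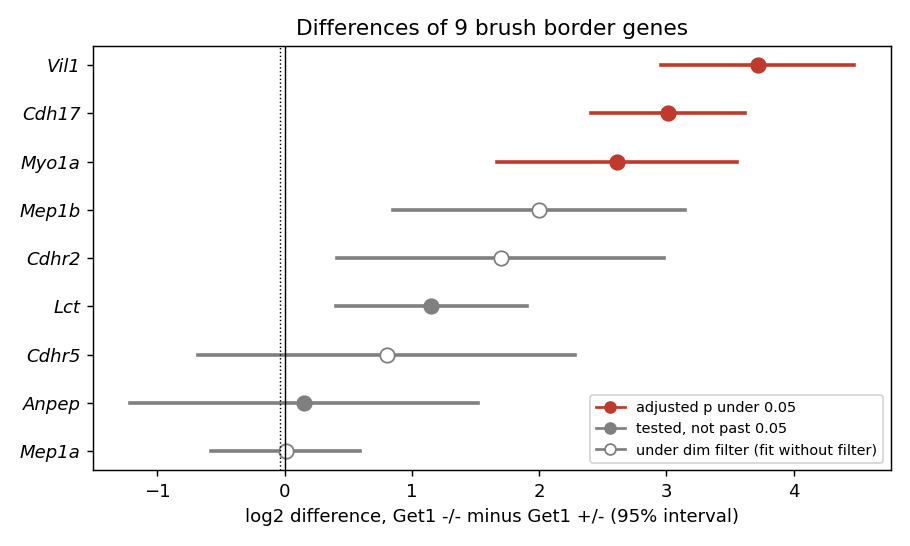
Log2 difference, Get1 -/- minus Get1 +/-, of the 9 brush border genes with limma's 95% interval (n = 3 each). Red marks an adjusted p under 0.05, grey a tested gene that missed it, and open circles genes under the dim filter, whose interval comes from the fit without a filter; the dotted line is the median of all genes tested, −0.03. Vil1, Cdh17 and Myo1a lie at 2.61 or more, and the intervals of Cdhr5, Anpep and Mep1a include 0.

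Among the peptidases the 2 meprin chains had unlike values, though the difference between them was not tested. Mep1b encodes the beta chain of meprin, a zinc peptidase anchored in the membrane. Its signal read 15.1, 87.9 and 101.9 on the null arrays, against 2.48, 2.22 and 1.77 on the heterozygous arrays. All null arrays were higher, null 1 by far the least, and the heterozygous arrays were near the lowest level. Its log2 level was 6.18 ± 1.06 in null bladders, against 4.18 ± 0.03 in heterozygous ones (SD, n = 3 each), a difference of 2.00 (exact permutation p = 0.1, the smallest possible, two-sided). In the fit without a filter its 95% interval was 0.85 to 3.14 and its adjusted p 0.287 (limma). The size hung on the offset, with 4.07 for an offset of 1 and 0.93 for 64.

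Mep1a encodes the alpha chain, which is cut from the membrane and secreted where it is not held by the beta chain. Its signal read 27.2, 46.4 and 37.8 on the null arrays, against 29.3, 38.5 and 41.8 on the heterozygous arrays. The groups overlapped fully, and all 6 values lay near the filter for dim genes. The log2 difference was 0.01 (exact permutation p = 1, two-sided), with a 95% interval from −0.58 to 0.60 in the fit without a filter. Mep1a was the 1 member with a further probe set, which by its name can also match other transcripts. That probe set had signals of 13.4, 35.6 and 13.3 on the null arrays, against 22.8, 1.31 and 25.5 on the heterozygous arrays, again overlapping.

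Anpep encodes aminopeptidase N, which trims amino acids from the ends of peptides. Outside the gut it is well known on myeloid cells and on fibroblasts and pericytes. Its signal read 153.1, 366.6 and 399.4 on the null arrays, against 109.1, 236.5 and 604.9 on the heterozygous arrays. Both groups spanned a wide range, and the highest value was that of heterozygous 6. Its log2 level was 8.23 ± 0.72 in null bladders, against 8.08 ± 1.16 in heterozygous ones (SD, n = 3 each). The difference of 0.15 did not pass (95% interval −1.22 to 1.52, adjusted p = 0.982, limma), and it ran from −0.40 to 0.75 with 1 array left out. The summed signal of 8 macrophage and granulocyte markers was 2773 to 3423 on the null arrays, against 2894, 3296 and 9775 on heterozygous arrays 4, 5 and 6. None of these 8 markers was called, 2 of them (Itgam and Elane) averaged below the dim filter in both groups, and Csf1r had a difference of −0.68 (adjusted p = 0.801, limma). On heterozygous 6 most of the sum was Csf1r (7247) and Lyz2 (1697), while Cd68, Mpo, Itgam and Elane were not highest there. The part of these 2 markers in the spread of Anpep was not tested. The sum of 8 fibroblast and pericyte markers was 64942 to 73057 on the null arrays, against 70871 to 87846 on the heterozygous arrays, highest on heterozygous 5.

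**Figure D3:**
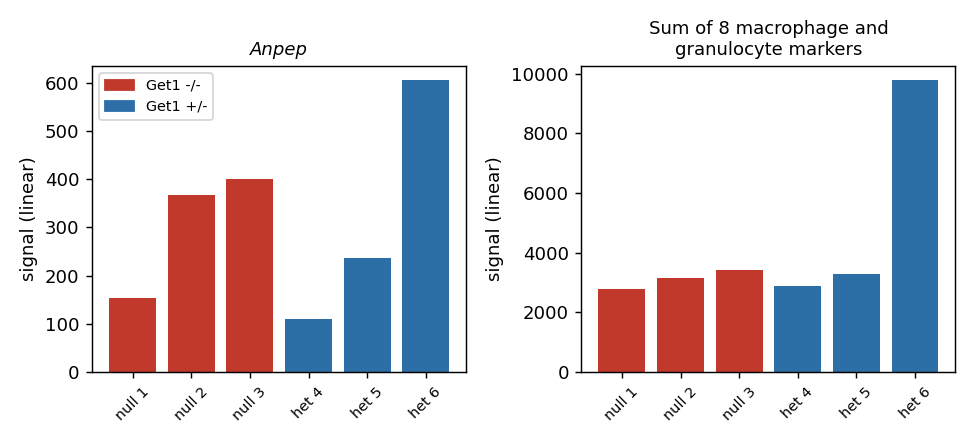
Linear signal of Anpep (left) and the summed signal of 8 macrophage and granulocyte markers (right) on each Get1 -/- array (null, red) and each Get1 +/- array (het, blue); bars are single arrays. Heterozygous 6 is the highest in both panels, at 604.9 for Anpep and 9775 for the markers, of which Csf1r makes up 7247.

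Lct encodes lactase, the disaccharidase that splits milk sugar in the small intestine before weaning. Its signal read 326.9, 326.4 and 611.3 on the null arrays, against 173.1, 127.6 and 231.1 on the heterozygous arrays. The groups did not overlap, and null 3 was the highest. Its log2 level was 8.71 ± 0.50 in null bladders, against 7.56 ± 0.39 in heterozygous ones (SD, n = 3 each). The difference of 1.15 (95% interval 0.40 to 1.90) did not pass the test over all genes (adjusted p = 0.361, limma), and it passed in 0 of the 16 alternative fits. In heterozygous bladders too the mean of Lct lay above the dim filter, which by itself does not show that the transcript was present.

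The members did not share 1 pattern over the null arrays. For 8 of the 9 members null 1 was the lowest null array, the exception being Lct, where null 1 and null 2 were about equal. Set against the heterozygous mean of each gene, Vil1 was higher by 3.08, 3.92 and 4.15 on null arrays 1, 2 and 3, Cdh17 by 2.61, 3.47 and 2.97, and Myo1a by 2.18, 2.82 and 2.83. These 3 genes were thus high on every null array. Mep1b was higher by 0.77, 2.52 and 2.70 and Cdhr2 by 0.44, 2.32 and 2.33, so their difference came mainly from null 2 and null 3. Cdhr5 stood at −0.28, 1.27 and 1.43 and Anpep at −0.67, 0.50 and 0.62. Without null 1, which leaves the 5 arrays whose titles have 2 as first number, the differences of Mep1b and Cdhr2 were 2.61 and 2.33.

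**Figure D4:**
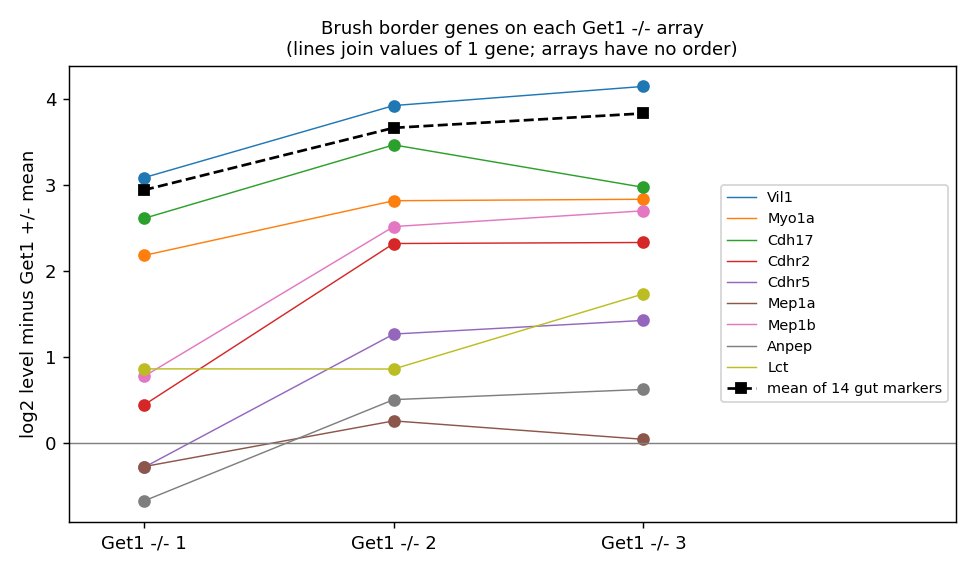
Log2 level on each Get1 -/- array minus the Get1 +/- mean of the same gene, for the 9 brush border genes (coloured) and as the mean of 14 intestinal markers (black squares). Lines join the values of 1 gene, and the arrays have no order. Vil1, Cdh17 and Myo1a lie above 2 on all 3 arrays, while Cdhr2, Cdhr5 and Mep1b lie under 1 on null 1.

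A list of 14 markers of intestinal epithelium shares no gene with the brush border list, and 13 of them had a higher mean in null bladders. Krt20 was the exception, with a difference of −0.35 (adjusted p = 0.889, limma), and Isx, at 0.48, overlapped between the groups. Of 11 tested markers 9 were called higher and 0 lower, among them Tff3 (7.45), Guca2a (5.43), Fabp1 (5.41), Hnf4a (4.56), Lgals4 (4.47), Muc2 (4.37) and Clca1 (3.37), with adjusted p from 9.33e-05 to 0.00852 (limma). Their summed signal was 24439, 32675 and 34962 on null arrays 1 to 3, against 1505 to 2250 on the heterozygous arrays. In heterozygous bladders 10 of the 14 averaged below the dim filter, and in null bladders 2 did, Cdx1 and Isx. Of the called markers, Cdx2, Fabp1, Muc2, Tff3, Phgr1 and Guca2a were among these 10 and passed the filter only through their null arrays. In the fit that left no gene out their adjusted p ran from 0.000288 to 0.0174 (limma). Hnf4a, Lgals4 and Clca1 averaged above the filter in both groups. Null 1 was again the lowest, with a mean of the 14 markers 2.94 above the heterozygous mean, against 3.66 on null 2 and 3.83 on null 3. Fabp2, a fatty acid binding protein of small intestinal enterocytes, had a signal of 38.3, 305.3 and 953.8 on the null arrays, against 3.15, 50.2 and 53.7 on the heterozygous arrays. As for Cdhr2 and Cdhr5, null 1 lay in the heterozygous range for Fabp2. Whether the levels of these markers and of the brush border genes have a common source was not tested.

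The kidney proximal tubule also carries a brush border, and 0 of its 8 markers were called. Their summed signal was 654 to 1102 on the null arrays, against 487 to 555 on the heterozygous arrays, and 5 of the 8 averaged below the dim filter in both groups, among them the defining transporters Slc34a1 and Slc22a6. Cubn, which encodes the receptor cubilin and is made by small intestine too, had a difference of 1.77 (adjusted p = 0.264, limma). Slc5a2 had one of 0.39 (adjusted p = 0.815, limma). The 4 markers of other kidney tubules all averaged below the dim filter in both groups. Among 7 liver markers and 5 of exocrine pancreas 0 were called, with Alb at −2.35 (adjusted p = 0.624), Apoa1 at 1.62 (adjusted p = 0.791), Cpa1 at 0.12 (adjusted p = 0.976) and Cela1 at 0.03 (adjusted p = 0.991, limma). The summed liver signal was 952, 6285 and 6269 on the null arrays, against 5630, 1008 and 923 on the heterozygous arrays. On null 2 and null 3 this was mostly Ttr (5344 and 4824) and Apoa1 (815 and 1262), which tissues other than liver also make, with Alb at 1.9 and 74.0. On heterozygous 4, also the highest heterozygous array for Myo1a, Alb (995), Afp (966) and Fgb (132) were higher than on any other array, and their part in the Myo1a values was not tested. Of 7 markers of the epididymal, seminal and prostate tract 0 were called, with Spink1 at 3.74 (adjusted p = 0.207) and Hoxb13 at 1.35 (adjusted p = 0.26, limma). The median of the 7 was −0.33, 3 had a higher mean in null, and 5 averaged below the dim filter in each group (4 in both, with Svs5 in null and Spink1 in heterozygous bladders). Of 12 urothelial markers 1 was called, Upk2, which fell by 3.03 (adjusted p = 0.00223), and Upk1a had a difference of −2.36 (adjusted p = 0.199, limma). The median of the 12 was −0.25, and 5 of them had a higher mean in null. Smooth muscle, fibroblast and endothelial lists had 0 calls, with Des at 0.80, Cnn1 at 0.58, Rgs5 at −0.66, Dpt at −0.76, Pecam1 at −0.83 and Cdh5 at 0.41 (adjusted p from 0.281 to 0.722, limma).

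A wider set of 47 further genes in 4 lists, drawn up for the brush border but not all confined to it, had 0 genes called in either direction. Of these, 44 had a probe set and 28 were tested, and 8 of the 28 had an unadjusted p under 0.05, all of them higher in null, against 1010 of all 12735 genes in both directions. Among these 8, Ush1c, Anks4b, Slc26a3 and Mgam averaged below the dim filter in heterozygous bladders (4.99 to 5.58). They were tested only through their null arrays, which limits what this count can show. The median difference of the 44 was 0.26, against −0.04 over all genes. Null arrays lay wholly above the heterozygous ones for 8 of the 44 and wholly below for 1, Tmprss15, where 5.71% and 6.92% of all genes did so.

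Nearest to a call was Mgam, maltase-glucoamylase, a disaccharidase like Sis and Lct. Its signal read 167.7, 839.7 and 514.8 on the null arrays, against 14.9, 46.3 and 40.3 on the heterozygous arrays. The groups were separate, and the difference was 3.20 (95% interval 1.92 to 4.47, adjusted p = 0.0768, limma). Mgam passed without null 1 (difference 3.82, adjusted p = 0.00933, limma) and in 4 other alternative fits. The remaining fits that tested it did not call it. With any array other than null 1 left out the adjusted p ran from 0.187 to 0.259, and without the filter it was 0.112 (limma). In heterozygous bladders Mgam averaged 5.58, so it passed the dim filter only through its null arrays. Naaladl1, a peptidase of the small intestinal surface, had a signal of 0.72, 248.4 and 252.6 on the null arrays, against 15.8, 28.3 and 3.48 on the heterozygous arrays. Null 1 was the lowest of all 6 arrays for it, and the other two null arrays the highest. Its difference was 1.81 (adjusted p = 0.734, limma), and 3.14 without null 1 (adjusted p = 0.0181, limma). The log2 level of Naaladl1 was 4.06 on null 1 and averaged 4.91 in heterozygous bladders. It thus passed the dim filter only through null 2 and null 3. The fit without null 1 was picked out after the values were seen and drops the 1 null array that went the other way, so its p is no support for a rise. Among the 13 hydrolases with a probe set the median difference was −0.09. Alpi, the intestinal alkaline phosphatase, was under the dim filter, with 72.7, 97.2 and 62.8 on the null arrays, against 9.28, 21.3 and 16.9 on the heterozygous arrays, which did not overlap.

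The complex that anchors Cdhr2 and Cdhr5 at the microvillus tip had 4 measured genes, with a median difference of 1.10. Ush1c, the scaffold harmonin, had a signal of 77.6, 128.4 and 77.2 on the null arrays, against 16.5, 32.8 and 4.34 on the heterozygous arrays. Myo7b, the motor of the complex, had 52.3, 70.5 and 57.4 on the null arrays, against 6.86, 21.2 and 8.46 on the heterozygous arrays. Both were separated between the groups, on null 1 as well, unlike Cdhr2 and Cdhr5. Neither passed, with a difference of 1.76 for Ush1c (adjusted p = 0.155, limma) and of 1.46 for Myo7b, which was under the filter (adjusted p = 0.143 in the fit without it). Anks4b, a further scaffold of the complex, had a difference of 0.73 (adjusted p = 0.595), and Calml4, a light chain, one of −0.21 (adjusted p = 0.886, limma).

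**Figure D5:**
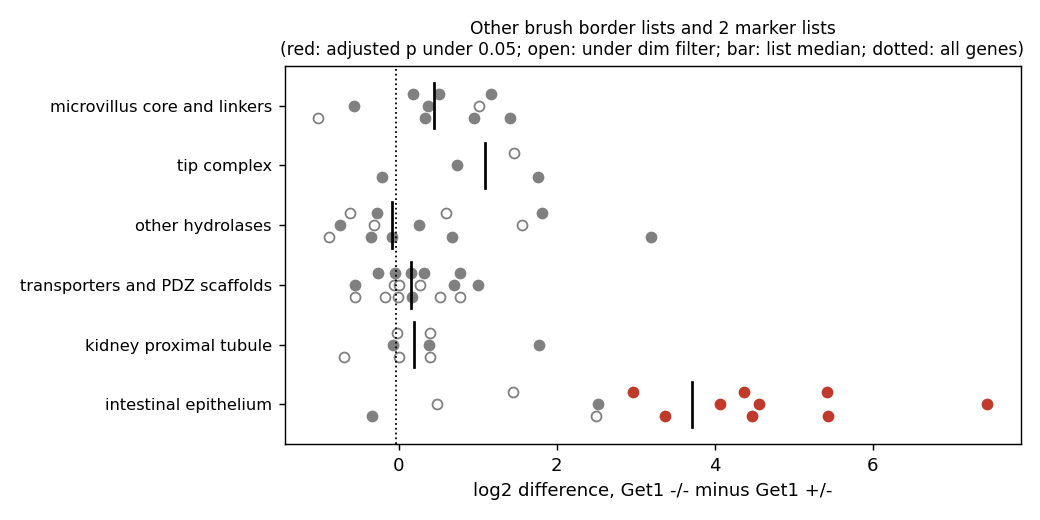
Log2 difference, Get1 -/- minus Get1 +/-, of the genes of 4 further brush border lists and of markers of kidney proximal tubule and intestinal epithelium. Each point is a gene (red, adjusted p under 0.05; open, under the dim filter), bars are list medians and the dotted line is the median of all genes, −0.04. The medians of the 4 brush border lists run from −0.09 to 1.10 with 0 red points, and that of the intestinal markers is 3.71 with 9.

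In the list for the microvillus core and its links to the membrane, 10 genes had a median of 0.44 and 0 were called. Pls1, plastin 1 or fimbrin, which bundles actin beside villin, had a signal of 873.7, 580.9 and 599.6 on the null arrays, against 301.0, 323.5 and 147.5 on the heterozygous arrays. Myo1d, a class I myosin found in the same microvilli as Myo1a, had 363.4, 385.1 and 424.3 on the null arrays, against 106.6, 193.2 and 212.2 on the heterozygous arrays. The groups did not overlap for either gene. The differences of 1.41 and 1.17 did not pass (adjusted p = 0.252 and 0.255, limma). Ezr, ezrin, which ties actin to the membrane in many epithelia, had a difference of 0.17 (adjusted p = 0.943, limma). Transporters and their scaffolds had a median of 0.16 over 17 genes and 0 separated between the groups, with the chloride exchanger Slc26a3 at 0.70 and the amino acid transporter subunit Slc3a1 at 0.77 (adjusted p = 0.603 for each, limma).

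Relatives of the 2 core proteins were set beside them. Of 7 villin and gelsolin relatives 0 were called, with Scin, an actin-severing protein also called adseverin, at 1.58 (adjusted p = 0.199) and the capping protein gene Capg at 0.48 (adjusted p = 0.627, limma), against 3.72 for Vil1. Of 6 class I myosins other than Myo1a 0 were called, with Myo1d as above and Myo1f, a myosin of blood cells, at −0.52 (adjusted p = 0.722, limma), against 2.61 for Myo1a. Whether Vil1 or Myo1a changed more than its relatives was not tested.

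Over the 6 arrays the mean profile of the 5 tested members, each centred on its own mean, ranked null 3 highest and heterozygous 5 lowest. The 5 other genes nearest to this profile, by mean absolute distance in log2 units over the 6 arrays, were Naip5 (0.163), Ckmt1 (0.165), Stfa2l1 (0.204), Ifit1bl1 (0.229) and S100a9 (0.233). Naip5 encodes a sensor of bacterial flagellin in mouse, Ckmt1 a mitochondrial creatine kinase, and S100a9 a subunit of calprotectin. Their differences were 2.44, 1.97, 2.20, 2.41 and 1.84, with all null arrays above all heterozygous ones for each. Both follow from how the genes were chosen, because the profile itself ranked every null array above every heterozygous array.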

How the data were processed

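RNA of 6 mouse bladders was measured on expression arrays, 3 Get1 -/- and 3 Get1 +/-, grouped by the sample titles. The authors deposited 1 linear intensity per probe set and array. The submitters' processing notes name Affymetrix Expression Console 1.1 and PLIER 2.0 without saying what each did, and neither background correction nor scaling is described in the sources used here. Upper quartiles of 336 to 372 show arrays already on a similar scale. The number of arrays limits the precision. Per the labels, the labelled target was DNA in sense orientation, but the names of the probe sets belong to an array type usually given antisense RNA, and the labels do not resolve this.

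Of 45101 probe sets, 64 were controls and 34945 had exactly 1 symbol, giving 18193 genes. Values were taken as log2(signal + 16) and the lowest 30% by mean (under 5.80, a signal of 39.7) were left out. The test was limma 3.58.1 under R 4.3.3 (lmFit, eBayes, two-sided, Benjamini-Hochberg over 12735 genes, threshold 0.05), after a check on simulated data. Leave-out, offset and normalization alternatives kept the same probe sets and tested genes. The members and lists were chosen with earlier results of these data known. The rule for names was all members, called list genes (at most 6 a list), the 2 smallest p per list and the 5 nearest profiles. Other genes, such as Fabp2, Naaladl1 without null 1, Alpi, Myo7b, Calml4, Ezr and Tmprss15, were named after their values were seen.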

Additional observations from a re-analysis of the deposited data

How the results depend on the processing

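The 16 alternatives to the processing were changes of offset, filter, probe set rule, normalization and variance model, and leaving out each array in turn. Members called higher numbered 3 throughout these, or 2 where Myo1a missed the threshold, except that 1 was called with the lowest 50% of genes left out, where Cdh17 and Myo1a were not tested. With 1 array left out the count ran from 2 to 3, and members called lower numbered 0 in all 16. Anpep, which never passed, had differences of −0.02 without null 2, −0.08 without null 3 and −0.40 without heterozygous 4, the range with 1 array left out being −0.40 to 0.75. Over all genes, 57 were higher and 8 lower in the fit as reported. Higher genes numbered 36 with an offset of 1, 65 with centring, 67 with trend and robust fitting, 77 with array weights, and 38 to 54 with 1 array left out. Lower genes numbered 5 with an offset of 1 or with the lowest 50% left out, 11 with centring, 9 with trend and robust fitting, 12 with array weights, and 5 to 9 with 1 array left out. Other brush border genes called higher numbered 0 in the fit as reported, 2 with probe sets averaged (Mgam and Alpi), 1 with centring, 1 with trend and robust fitting and 1 with array weights (Mgam each time), and 0 to 2 with 1 array left out (Mgam and Naaladl1 without null 1); genes called lower numbered 0 in all. The cause of these shifts was not tested. No paired analysis was possible because the null arrays carry replicate numbers 1 to 3 and the heterozygous arrays 4 to 6, so no number is shared.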
